A study of Mus musculus with 24 samples.

Results

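Wild-type (WT) mouse livers of the same feeding state differed widely in their level of Bcl6 mRNA, and the WT livers in which it was high were compared with those in which it was low. The members were chosen by that measured level. Within each feeding state the 4 WT libraries were ranked by their log2 level of Bcl6, the upper 2 were called high and the lower 2 low. This gave 4 high libraries (fasted WT replicates 1 and 2, fed WT replicates 3 and 4) and 4 low libraries (fasted WT replicates 3 and 4, fed WT replicates 1 and 2), 8 of the 20 libraries with values in the series. The split was made on a measured level and not on a treatment, so a p-value below says how closely another gene followed the split, and Bcl6 itself is described without a test.

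All animals were male and of the C57BL/6 strain, and the sources used here do not give their age. WT mice carried the floxed Bcl6 alleles (Bcl6 fl/fl) without Cre, and were either fasted overnight or fed ad libitum. The 3 knockout groups that serve below for comparison have 4 libraries each. They are fed mice with Bcl6 fl/fl and Alb-Cre, in which the albumin promoter drives Cre in hepatocytes and leaves Bcl6 intact in other liver cells (Bcl6LKO), fasted Ppara-/- mice, which lack Ppara in the whole body (PparaKO), and fasted mice with both deletions (DKO). Floxed Bcl6 alleles are named for every one of these groups except PparaKO. Whether each library is a different animal is not stated in the labels, and the spread behind a p-value may then be technical.

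BCL6 is a transcriptional repressor that recognises DNA sequences resembling those bound by STAT factors. In liver, growth hormone binds its receptor GHR, which activates the kinase JAK2 and through it the transcription factors STAT5A and STAT5B. In male rodents the hormone is released in pulses, and hepatic STAT5 activity rises and falls with them. Active STAT5 raises Cish and Socs2, whose products restrain the signal, and is known to repress Bcl6. No growth hormone level or STAT5 activity was measured in these livers.

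The promoters of Bcl6, by whose level the livers were split, and of Cish, the gene called lower below, are shown. Whether STAT5 had a part in the split was not tested. Windows of 300 bases, from 250 bases before the annotated start to 50 after it, were taken from RefSeq (GRCm38.p6, the assembly also called mm10), and TTCNNNGAA, the sequence bound by STAT5, which reads the same on both strands, is in capitals.
Cish (chr9:107296409-107296708, plus strand): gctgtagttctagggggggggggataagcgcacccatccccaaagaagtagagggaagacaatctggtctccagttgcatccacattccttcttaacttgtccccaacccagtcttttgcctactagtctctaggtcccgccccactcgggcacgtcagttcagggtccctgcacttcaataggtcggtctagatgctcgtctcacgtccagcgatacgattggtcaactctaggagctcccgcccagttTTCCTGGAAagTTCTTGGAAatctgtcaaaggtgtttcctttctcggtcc
Bcl6, first window (chr16:23988803-23989102, minus strand): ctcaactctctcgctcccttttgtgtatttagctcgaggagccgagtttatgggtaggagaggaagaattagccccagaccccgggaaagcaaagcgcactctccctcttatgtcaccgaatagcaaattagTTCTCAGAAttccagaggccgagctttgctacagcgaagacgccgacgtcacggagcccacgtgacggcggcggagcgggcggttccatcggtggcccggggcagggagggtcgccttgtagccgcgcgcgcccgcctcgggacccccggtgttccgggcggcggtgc
Bcl6, second window (chr16:23981234-23981533, minus strand): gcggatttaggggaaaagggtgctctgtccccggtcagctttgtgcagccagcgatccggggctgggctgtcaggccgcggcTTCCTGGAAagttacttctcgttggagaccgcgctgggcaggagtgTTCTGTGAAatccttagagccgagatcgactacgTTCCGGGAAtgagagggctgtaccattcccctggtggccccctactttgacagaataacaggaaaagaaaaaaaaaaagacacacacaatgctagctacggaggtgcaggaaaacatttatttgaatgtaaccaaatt
The Cish window held 2 matches, at positions 251 and 262 of the window, which is at the annotated start and just after it. The first Bcl6 window held 1 match, beginning 118 bases before the start. The second window, which belongs to an annotated start inside the gene, held 3, beginning 168, 122 and 88 bases before it. Of all 32851 RefSeq windows of this length 8.30% held at least 1 match and 0.457% held 2 or more. The windows of Cyp2c70, Onecut1 and Gadd45g held none. Igfals, Ing3 and Socs3, which are also named below, each had a window with 1 match. A match is a stretch of letters and was not tested for binding.

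The level of Bcl6 (chromosome 16, 23965050 to 23988866) was 9.08 and 9.57 in the fasted high livers and 10.40 and 10.10 in the fed high livers, against 7.80 and 7.52 in the fasted low livers and 8.19 and 9.30 in the fed low livers. All levels are log2 values as the study deposited them, and 1 unit is a factor of 2. The lowest high library lay 1.27 above the highest low library in fasted livers (9.08 and 7.80), and 0.81 above it in fed livers (10.10 and 9.30). Fed WT replicate 2 is thus a low library whose Bcl6 exceeded that of the fasted high replicate 1, and only the ranking within a feeding state put it on the low side.

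**Figure D1:**
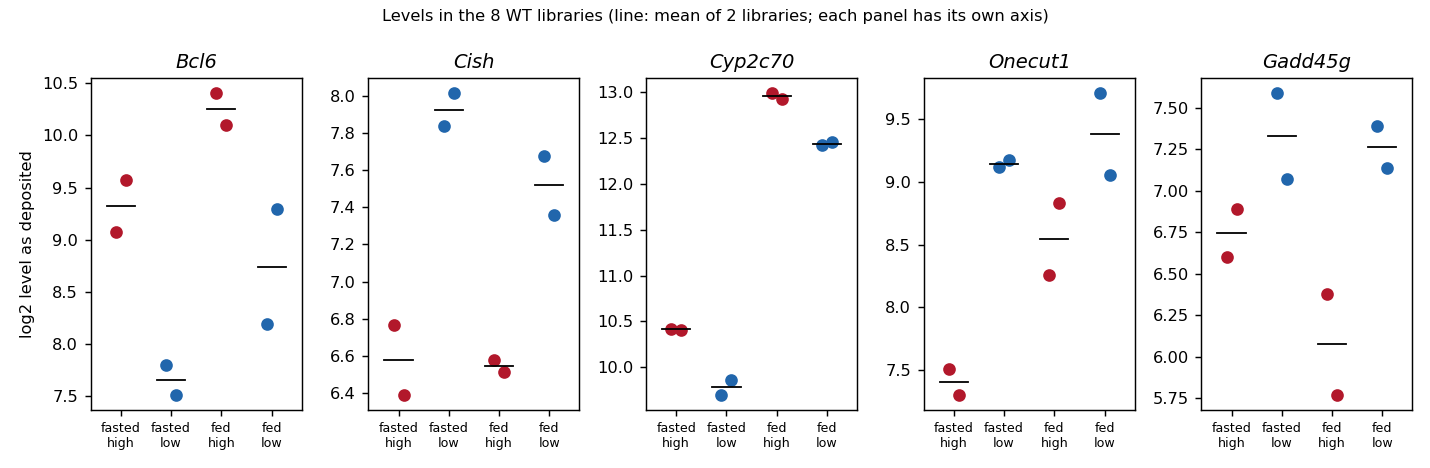
Log2 levels as deposited of Bcl6, Cish, Cyp2c70, Onecut1 and Gadd45g (one panel each, with its own vertical axis) in fasted high, fasted low, fed high and fed low WT livers; each point is 1 library and each line the mean of 2. High and low points do not overlap within either feeding state, with Cish, Onecut1 and Gadd45g lower and Cyp2c70 higher in high livers.

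Of 11909 genes tested other than Bcl6, 1 was lower and 1 was higher in high livers at an adjusted p under 0.05 (0.0084% of tested genes in each direction, 0.0168% in all). The lower gene was Cish, whose product binds activated cytokine receptors and dampens STAT5 signalling. Cish (chromosome 9, 107296659 to 107302784) measured 6.77 and 6.39 in the fasted high livers and 6.58 and 6.51 in the fed high livers, against 7.84 and 8.01 in the fasted low livers and 7.68 and 7.36 in the fed low livers. All 4 high libraries lay below all 4 low libraries, whichever the feeding state. The difference was -1.16 (SE 0.12, adjusted p = 0.0181), a level 2.23-fold lower in high livers, and it was -1.35 in fasted and -0.97 in fed livers. The call was lost when any of 6 libraries was left out, namely fed WT replicate 1, 3 or 4 or fasted WT replicate 1, 3 or 4, with adjusted p-values between 0.0669 and 0.141 and a difference of -1.21 to -1.09. A block for the replicate number gave an adjusted p of 0.00264.

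The gene that rose was Cyp2c70, a cytochrome P450 that makes the muricholic acids of mouse bile. Cyp2c70 (chromosome 19, 40153361 to 40187286) measured 10.42 and 10.41 in the fasted high livers and 12.99 and 12.92 in the fed high livers, against 9.70 and 9.86 in the fasted low livers and 12.43 and 12.45 in the fed low livers. High and low libraries were apart within each state. Cyp2c70 fell by 2.60 in fasted relative to fed WT livers, a comparison that called 22.3% of genes, so the levels of the 2 states did not meet. The difference between high and low was 0.57 (SE 0.05, adjusted p = 0.0160), a 1.49-fold higher level, and it was 0.64 in fasted and 0.51 in fed livers. Leaving out any of 5 libraries (fed WT replicate 1 or 3, fasted WT replicate 1, 2 or 4) gave adjusted p-values between 0.0669 and 0.0910. When the level of Bcl6 itself replaced the split as a numeric term, Cyp2c70 was no longer called (adjusted p = 0.606) and Cish still was. Cyp2c70 belongs to a family of closely related genes, which makes its level less certain. The study kept only uniquely mapped reads, so reads that fit several such genes alike were left out.

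Onecut1, whose difference was larger than that of Cish, and Gadd45g had the smallest p-values among the other growth hormone and STAT5 genes, and neither was called. Onecut1 encodes HNF6, a liver-enriched transcription factor whose expression responds to growth hormone. Onecut1 (chromosome 9, 74861921 to 74889648) measured 7.51 and 7.30 in the fasted high livers and 8.26 and 8.83 in the fed high livers, against 9.12 and 9.17 in the fasted low livers and 9.70 and 9.05 in the fed low livers. High and low libraries were apart in each state, by a narrow margin in fed livers. The difference of -1.29 (SE 0.21) missed the threshold (adjusted p = 0.706) and passed it in only 3 of 21 alternative settings. These were the replicate number as a block (adjusted p = 0.0190), leaving out fed WT replicate 2 (-1.51, adjusted p = 0.0386), and the fasted libraries alone in the PparaKO table (adjusted p = 0.0114).

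Gadd45g encodes a stress-induced protein that restrains cell division. Gadd45g (chromosome 13, 51846675 to 51848475) measured 6.60 and 6.89 in the fasted high livers and 6.38 and 5.77 in the fed high livers, against 7.59 and 7.07 in the fasted low livers and 7.39 and 7.14 in the fed low livers. All 4 high libraries lay below all 4 low ones. The difference of -0.88 (SE 0.18) missed the threshold (adjusted p = 0.958). It passed in only 1 of 21 alternative settings, with the block (adjusted p = 0.0368).

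At an unadjusted p under 0.05 limma gave 263 higher genes (2.21%) and 298 lower genes (2.5%), 4.71% of those tested. High and low libraries were apart in both feeding states for 613 genes (5.15%), 320 of them higher (2.69%) and 293 lower (2.46%) in high livers. Neither share exceeds what genes unrelated to the split would give if libraries varied independently. That is a share of 0.05 for the unadjusted p, and 0.0556 for being apart in both states, from 36 possible labelings. Neither count took account of the replicate number, by which fed and fasted libraries deviated together. Such shared deviations widen the spread in the fit, so these shares cannot show that few genes followed the split. After scaling the libraries to equal totals the unadjusted counts were 181 higher and 400 lower, so their balance depends on the scaling.

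With the replicate number as a block 6 genes were called, 1 higher (Cyp2c70) and 5 lower. They included Cish, Onecut1 and Gadd45g. The other two, Cidec and Cntnap1, were singled out after their values were seen. Cidec encodes a lipid droplet protein that promotes the growth of droplets, and measured 5.89 and 6.05 in the fasted high livers and 5.43 and 5.23 in the fed high livers, against 7.43 and 7.21 in the fasted low livers and 5.35 and 5.25 in the fed low livers. Cntnap1 encodes contactin-associated protein, a cell adhesion molecule known from myelinated nerve, and measured 6.04 and 5.93 in the fasted high livers and 5.86 and 5.77 in the fed high livers, against 7.60 and 7.44 in the fasted low livers and 5.53 and 5.71 in the fed low livers. Both genes set fasted WT replicates 3 and 4 apart from all other libraries and hardly varied among fed livers. Without the block Cidec differed by -0.66 (SE 0.24, adjusted p = 0.958) and with it by the same amount (adjusted p = 0.0368). Cntnap1 differed by -0.67 (SE 0.29, adjusted p = 0.958), and with the block its adjusted p was 0.0368. The block fits levels for 4 replicate numbers in 8 libraries, which leaves few degrees of freedom for the spread. It also takes up a high minus low difference that is unlike between the feeding states.

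Genes of growth hormone and STAT5 signalling were examined as a list of 29, of which 28 passed the filter on low levels. The list was drawn up with earlier results of these data known, so the counts below describe it and are no independent evidence. None was higher and 1, Cish, was lower at an adjusted p under 0.05, and 3 were lower with the replicate number as a block. At an unadjusted p under 0.05, where limma gave 2.21% of all tested genes as higher and 2.5% as lower, 0 of the 28 were higher and 5 were lower. These were Cish, Onecut1, Gadd45g, Sh2b3 (an adaptor that restrains JAK2 signalling) at -0.16 (SE 0.06, adjusted p = 0.958), and Tox (a nuclear protein that is female-biased in mouse liver) at -0.20 (SE 0.08, adjusted p = 0.958). The median over the list was -0.03, against -0.00 over all tested genes, and the other 23 members lay between -0.23 and 0.24.

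**Figure D2:**
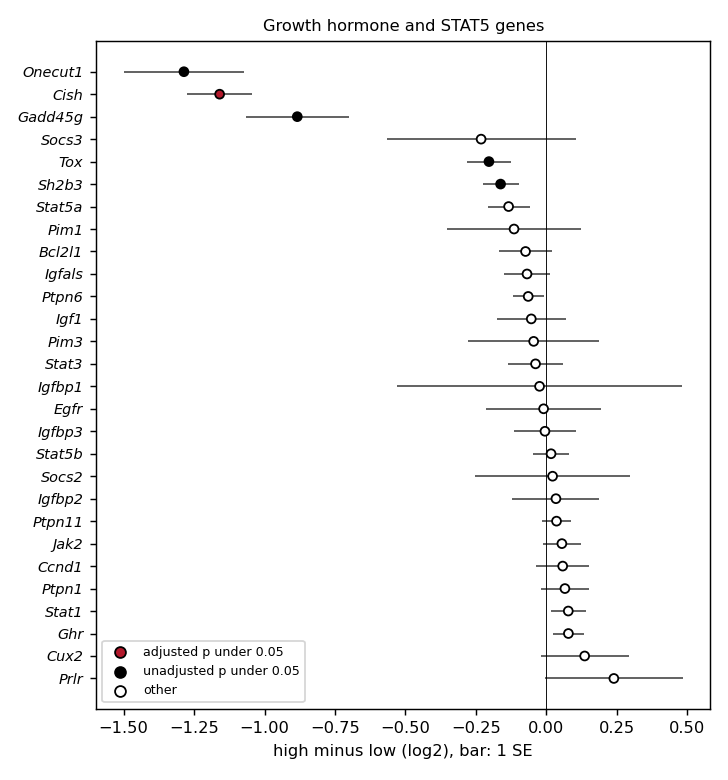
High minus low difference (log2, horizontal axis) of the 28 tested growth hormone and STAT5 genes in the 8 WT livers, with bars of 1 SE; red marks an adjusted p under 0.05, black an unadjusted p under 0.05. Onecut1, Cish and Gadd45g lie between -1.29 and -0.88, while the 23 members drawn open lie between -0.23 and 0.24.

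The signalling components themselves differed little. The receptor Ghr differed by 0.08 (SE 0.05), and the transcription factors Stat5a and Stat5b by -0.13 (SE 0.07) and 0.02 (SE 0.06), with adjusted p-values of 0.958, 0.958 and 0.990. Igf1, the liver-made growth factor that mediates much of growth hormone's action, differed by -0.05 (SE 0.12), and Igfals, which carries it in blood, by -0.07 (SE 0.08). Igf1 is a long-established STAT5 target, and its levels ran from 13.20 to 13.34 in high livers and from 12.86 to 13.52 in low livers.

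Socs2, the other feedback inhibitor in the list, did not follow the split. It measured 7.22 and 6.73 in the fasted high livers and 7.29 and 8.37 in the fed high livers, against 7.67 and 7.29 in the fasted low livers and 7.40 and 7.16 in the fed low livers. Its difference was 0.02 (SE 0.28, adjusted p = 0.999), being -0.51 in fasted and 0.55 in fed livers, and it turned negative without fed WT replicate 4 (-0.30). Fed WT replicate 4, which was high in Bcl6 and had the second lowest Cish, had the highest Socs2 of the 8 libraries. Socs3, an inhibitor of cytokine signalling that responds mainly to interleukin 6, differed by -0.23 (SE 0.34). The epidermal growth factor receptor Egfr, whose liver level depends on growth hormone, differed by -0.01 (SE 0.20).

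Outside the growth hormone list only Cyp2c70 passed the threshold in limma. Myc, an immediate early gene that drives growth, measured 6.58 and 6.49 in the fasted high livers and 6.38 and 6.22 in the fed high livers, against 7.19 and 8.11 in the fasted low livers and 6.42 and 7.22 in the fed low livers. The libraries were apart in both states, though in fed livers by very little, and the difference was -0.81 (SE 0.23, adjusted p = 0.958). Among genes of male-biased expression, which in male liver depend on pulsed growth hormone, Hsd3b5, a steroid dehydrogenase, differed by 0.38 (SE 0.08), the organic anion carrier Slco1a1 by 0.27 (SE 0.07) and the glucuronosyltransferase Ugt2b1 by 0.22 (SE 0.08), each with an adjusted p of 0.958. Cyp2c40, a female-biased P450 of the same family as Cyp2c70, differed by 0.40 (SE 0.08, adjusted p = 0.958). Nr1d1, the clock repressor REV-ERB alpha, differed by 0.35 (SE 0.09, adjusted p = 0.958).

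Male-biased genes had 0 of 26 tested members called, with a median of 0.10. At an unadjusted p under 0.05 in limma 3 were higher and 0 lower, beside 2.21% and 2.5% of all tested genes. Female-biased genes had 0 of 16 called and a median of 0.04, with 2 higher and 2 lower at that unadjusted p. No gene called in the comparison belonged to either list. In fed livers that lacked Bcl6 in hepatocytes, Hsd3b5 differed from fed WT livers by -5.62 (SE 0.11) and Cyp2c40 by 4.54 (SE 0.14), both larger than the differences between high and low WT livers.

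Corepressors that BCL6 recruits and related genes, among them the BCL6 relative Bcl6b, were a list of 12, all tested. None was called, and Bcorl1, a relative of the BCL6 corepressor BCOR, was the only member under an unadjusted p of 0.05 in limma, at -0.23 (SE 0.06, adjusted p = 0.958). Of all tested genes 4.71% were under that p. Rcor3, which helps to assemble a complex with histone demethylase and deacetylase activity, is not in that list and had the smallest p among lower genes after Cish and Onecut1, at -0.36 (SE 0.07, adjusted p = 0.958). Its levels were 7.36 and 7.35 in the fasted high livers and 7.03 and 7.25 in the fed high livers, against 7.73 and 7.83 in the fasted low livers and 7.33 and 7.53 in the fed low livers. Among higher genes with small p-values were Ing3, a subunit of a histone acetyltransferase complex (0.33, SE 0.07), and Ythdf1, which reads methylated adenine in mRNA (0.20, SE 0.05), both with an adjusted p of 0.958.

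Genes of fat oxidation and ketogenesis (0 of 35 called, 0 higher and 1 lower at an unadjusted p under 0.05, median -0.06), which are known targets of PPARα, and of lipogenesis (0 of 20 called, 1 higher, 0 lower, median 0.03) had no called gene. Nor had gluconeogenesis with glucocorticoid targets (0 of 21 called, 0 higher, 1 lower, median 0.01) or the clock (0 of 19 called, 1 higher, 0 lower, median 0.04). Of all tested genes 2.21% were higher and 2.5% lower at that unadjusted p in limma. Cyp2f2, a P450 of periportal hepatocytes, differed by 0.23 (SE 0.08, adjusted p = 0.958).

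Depth per library is unknown, since the files hold no counts. The total of back-transformed values ran from 12.9 to 13.8 mega-units in high livers and from 12.8 to 13.8 mega-units in low livers. Hepatocyte markers (9 of 10 tested) had a summed log2 level of 20.22 to 20.59 in high livers and 20.03 to 20.55 in low livers. Of the lists for other cell types none had a called gene, but several were hardly tested. Few members passed the filter for neutrophils (1 of 9), pancreas (1 of 8), adipose tissue and muscle (1 of 9), lymphocytes (2 of 12) and cholangiocytes (3 of 7). Kupffer cell markers (12 of 12 tested) summed to 12.72 to 12.89 in high livers and 12.54 to 13.06 in low livers, endothelial markers (12 of 12) to 13.41 to 13.53 and 13.40 to 13.53, and erythroid markers (10 of 11) to 12.39 to 13.71 and 12.67 to 13.89. These ranges pool both feeding states. The median high minus low difference was -0.26 in fed and 0.26 in fasted livers for Kupffer cell markers. It was -0.06 and 0.11 for endothelial markers, and -0.13 and -0.14 for erythroid markers. Itgam, which macrophages and neutrophils express, differed by -0.24 (SE 0.05), and the transferrin receptor Tfrc, which erythroid precursors and hepatocytes express, by -0.28 (SE 0.06), both with an adjusted p of 0.958. The part of other cell types in these values was not tested, and in bulk tissue fewer cells of a type and less RNA per cell cannot be told apart.

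The difference between high and low was next compared between feeding states. At an adjusted p under 0.05, 85 genes (0.714% of 11909) had a different high minus low difference in fasted than in fed livers, 36 of them with a larger and 49 with a smaller value in fasted livers, and 1717 (14.4%) did so at an unadjusted p under 0.05. The number called fell to between 1 and 24 when fed WT replicate 3 or 4 or any fasted library was left out, and was 1 without fasted WT replicate 4. High libraries are replicates 1 and 2 among fasted and replicates 3 and 4 among fed livers. This comparison is therefore identical to one of replicates 1 and 2 with replicates 3 and 4 over both feeding states, and an effect of feeding state on the split cannot be told apart from a shift between replicate numbers.

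**Figure D3:**
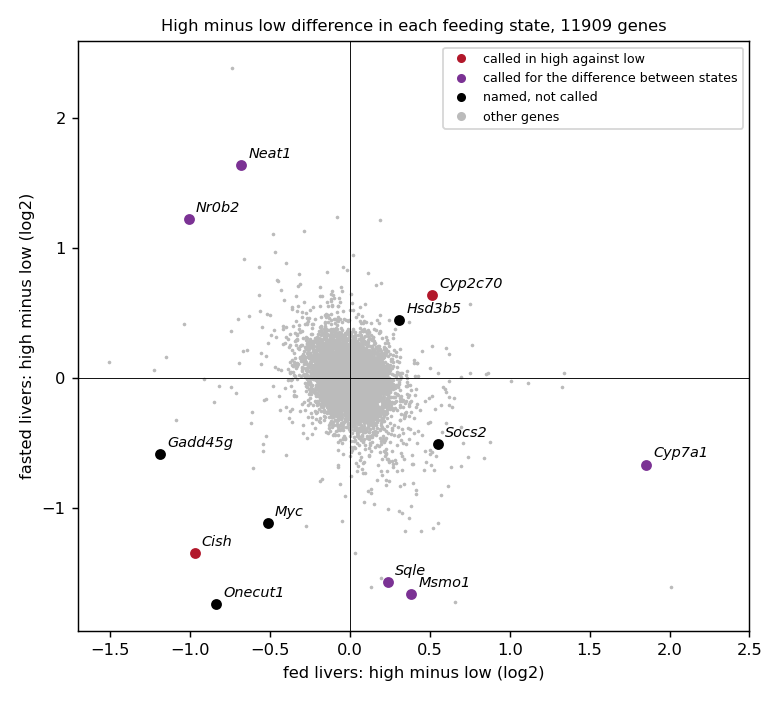
High minus low difference (log2) in fed WT livers (horizontal axis) and fasted WT livers (vertical axis) for 11909 genes, each from 2 against 2 libraries; red marks the 2 genes called in high against low, purple some of the 85 called for the difference between feeding states, black other named genes. Cish, Onecut1, Gadd45g and Myc lie in the lower left, Cyp2c70 and Hsd3b5 in the upper right, while Cyp7a1, Msmo1, Sqle, Nr0b2 and Neat1 have opposite signs in the 2 states.

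Of 23 cholesterol synthesis genes 13 were called, where 0.714% of all genes were. All 23 members were lower in fasted high than in fasted low livers (median -0.78), and all 23 were higher in fed high than in fed low livers (median 0.26). Msmo1, a sterol methyl oxidase, measured 9.72 and 10.28 in the fasted high livers and 11.90 and 11.84 in the fed high livers, against 11.59 and 11.73 in the fasted low livers and 11.50 and 11.47 in the fed low livers. For Msmo1 the fasted replicates 3 and 4 were thus near the fed level, and replicates 1 and 2 far below it. This was not so for every member, as Fdps, which makes farnesyl diphosphate and was singled out after its values were seen, measured 7.96 and 8.21 in the fasted high livers and 10.85 and 11.16 in the fed high livers, against 9.18 and 9.21 in the fasted low livers and 10.58 and 10.33 in the fed low livers. The fasted minus fed difference of high minus low was -2.04 for Msmo1 (SE 0.21, adjusted p = 0.0181) and -1.81 for squalene epoxidase Sqle (SE 0.23, adjusted p = 0.0257), and it was -1.67 for Fdps (adjusted p = 0.0181). These genes are known targets of SREBP2.

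**Figure D4:**
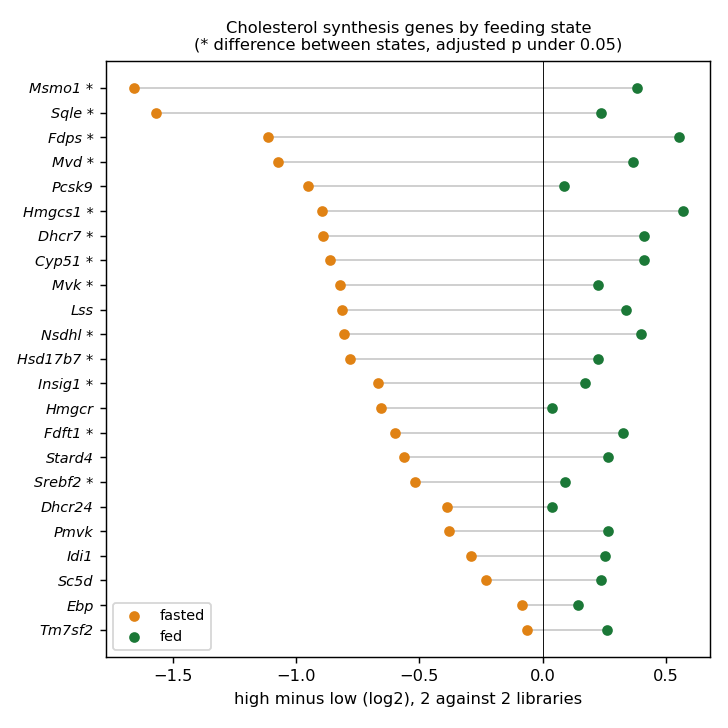
High minus low difference (log2, horizontal axis) of the 23 cholesterol synthesis genes in fasted (orange) and fed (green) WT livers, each from 2 against 2 libraries; an asterisk marks the 13 genes called for the difference between the states. Orange points lie below 0 and green points above 0 for 23 of 23 genes, with medians of -0.78 and 0.26.

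Of 16 bile acid genes 3 were called in the same comparison, where 0.714% of all genes were. Cyp7a1, the rate-limiting enzyme of bile acid synthesis, measured 11.84 and 11.51 in the fasted high livers and 13.02 and 12.18 in the fed high livers, against 12.07 and 12.61 in the fasted low livers and 10.66 and 10.84 in the fed low livers. High livers had less Cyp7a1 than low ones when fasted (-0.67) and more when fed (1.85), a fasted minus fed difference of -2.52 (SE 0.37, adjusted p = 0.0309). The sterol 12-hydroxylase Cyp8b1 gave -1.35 (SE 0.15, adjusted p = 0.0183). Nr0b2, the gene of SHP, a corepressor that lowers Cyp7a1, ran the other way at 2.23 (SE 0.39, adjusted p = 0.04996).

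Among other lists 3 of 12 Kupffer cell markers were called, where 0.714% of all genes were. Their fasted minus fed differences were 0.66 for Cd5l (SE 0.11), 0.76 for the macrophage receptor Adgre1 (SE 0.12) and 0.59 for the complement component C1qa (SE 0.09). The adjusted p-values were 0.0410, 0.0361 and 0.0309. The acute phase protein gene Lbp gave 1.11 (SE 0.19, adjusted p = 0.0477), Herpud1, a member of the unfolded protein response, 0.90 (SE 0.12, adjusted p = 0.0257), and the nuclear noncoding RNA Neat1 2.32 (SE 0.30, adjusted p = 0.0257). No growth hormone and STAT5 gene was called, and for Cish the fasted minus fed difference of high minus low was -0.37 (SE 0.20, adjusted p = 0.435).

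Knockout livers gave levels of Bcl6 and Cish in libraries that the split had not used. In the table of Bcl6LKO and WT fed livers, Cish measured 8.14, 7.95, 7.84 and 7.91 in fed Bcl6LKO replicates 1 to 4, against 6.55 and 6.47 in the fed high WT livers and 7.86 and 7.50 in the fed low WT livers. The 4 livers lacking hepatocyte Bcl6 thus lay at or just above the level of the low WT livers. Bcl6LKO livers exceeded WT livers by 0.87 (SE 0.27, adjusted p = 0.0277, beside 37.5% of genes called in that comparison). Their SD was 0.13, against 0.69 in fed WT livers (n = 4 each). Their Bcl6 level was 7.62 to 8.54, and fed WT replicate 1, a low library, lay within that range at 8.02. The deletion spans part of the gene, and reads from the remaining exons still count towards this level.

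In the table of DKO and WT fasted livers, Cish measured 7.70, 7.96, 7.98 and 8.28 in fasted DKO replicates 1 to 4, against 6.75 and 6.23 in the fasted high WT livers and 8.04 and 8.24 in the fasted low WT livers. For Cish, DKO livers again lay at the level of the low WT livers. Over all 4 WT livers the difference of 0.67 (SE 0.39, adjusted p = 0.197) did not pass the threshold, beside 39.4% of genes called in that comparison. Socs2, which had not followed the split, measured 9.44 to 9.66 in fed Bcl6LKO livers and 7.40 to 8.79 in fed WT livers of the same table, with no overlap. The receptor Ghr, which differed by only 0.08 between high and low WT livers, was much higher in both knockouts. It exceeded WT livers by 1.87 in Bcl6LKO (SE 0.07, adjusted p = 1.5e-08) and by 2.06 in DKO (SE 0.11, adjusted p = 2.4e-07). The knockouts were thus unlike the low WT livers in Ghr, and its part in their Cish level was not tested.

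Onecut1 did not share the Cish pattern in knockout livers. It measured 8.69 to 9.13 in fed Bcl6LKO livers, inside the range of fed WT livers (8.27 to 9.88), with a difference of -0.11 (SE 0.27, adjusted p = 0.764). In fasted DKO livers it differed from WT livers by -0.16 (SE 0.53, adjusted p = 0.842).

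Cyp2c70 did not lie at the level of the low WT livers in either knockout. It measured 13.41, 13.61, 13.98 and 13.41 in fed Bcl6LKO replicates 1 to 4, against 13.32 and 13.26 in the fed high WT livers and 12.73 and 12.76 in the fed low WT livers. Bcl6LKO livers lay above all 4 WT livers, with a difference of 0.59 (SE 0.16, adjusted p = 0.0166). In fasted DKO livers Cyp2c70 measured 12.18, 12.20, 12.14 and 11.71, against 10.22 and 10.21 in the fasted high WT livers and 9.39 and 9.58 in the fasted low WT livers, a difference of 2.21 (SE 0.19, adjusted p = 1.0e-05). Cyp2c70 was thus higher in the livers without hepatocyte Bcl6 than in WT livers, and among WT livers higher in those with more Bcl6. Gadd45g was higher in fasted DKO than in fasted WT livers by 0.81 (SE 0.26, adjusted p = 0.0284), and in fed Bcl6LKO livers it differed from fed WT livers by -0.10 (SE 0.39, adjusted p = 0.856). DKO livers also lack Ppara. In fasted PparaKO livers, which carry Bcl6, Gadd45g differed from fasted WT livers by 0.69 (SE 0.36, adjusted p = 0.187).

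**Figure D5:**
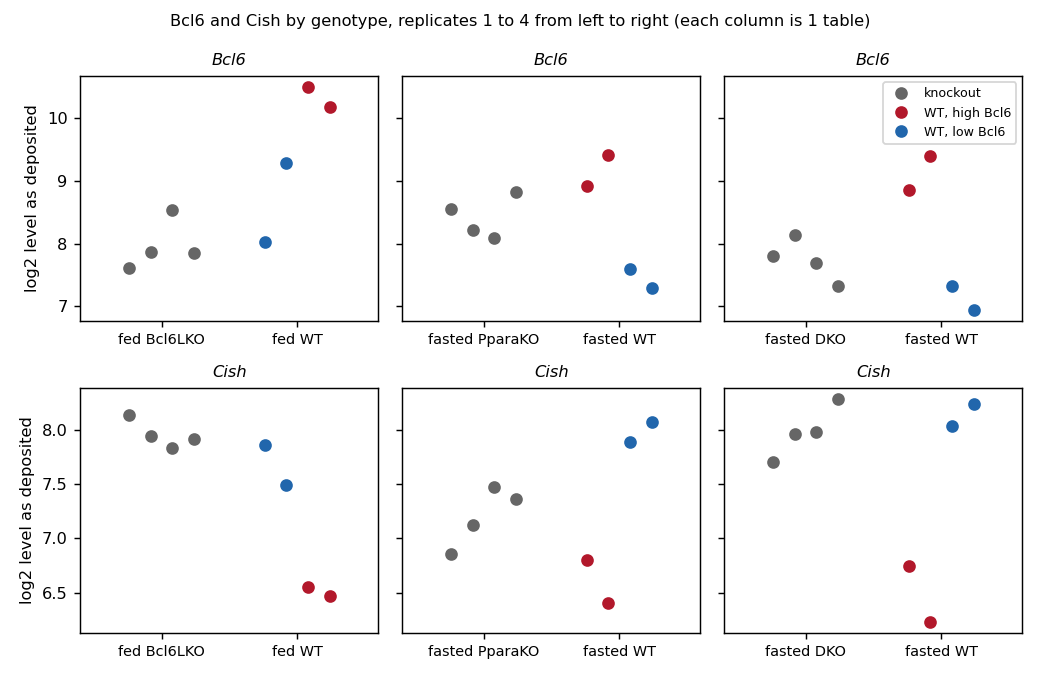
Log2 levels as deposited of Bcl6 (top) and Cish (bottom) in knockout livers (grey) and in WT livers with high (red) or low (blue) Bcl6; each column of panels is 1 separately scaled table and each point 1 library. Bcl6LKO livers (Cish 7.84 to 8.14) and DKO livers (7.70 to 8.28) lie near the low WT livers, and PparaKO livers (6.86 to 7.47) lie between the high and low WT livers.

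Fasted PparaKO livers, which carry Bcl6, were ranked by the same rule as the WT livers. Their Bcl6 level was 8.55 and 8.83 in replicates 1 and 4, called high, and 8.22 and 8.09 in replicates 2 and 3, called low, a much narrower spread (SD 0.33) than among fasted WT livers of that table (SD 1.02). Cish measured 6.86 and 7.37 in high PparaKO livers and 7.12 and 7.47 in low PparaKO livers, which overlap. The difference was -0.19 (SE 0.19, adjusted p = 0.889), against -1.38 between the high and low WT livers of the same table (adjusted p = 0.0132). The WT value came from a separate fit that took all PparaKO livers as a single group. Those WT livers are the fasted libraries of the split itself. Cyp2c70 differed by 0.73 (SE 0.24, adjusted p = 0.781) and Gadd45g by -0.61 (SE 0.48, adjusted p = 0.853), with the signs seen in WT livers, and Onecut1 by 0.25 (SE 0.22, adjusted p = 0.866), with the opposite sign. Of 11931 genes 0 were called, and 744 (6.24%) had an unadjusted p under 0.05 in limma. Leaving out PparaKO replicate 4, 1 of the 2 high libraries, gave 40 calls and leaving out replicate 1 gave 1.

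Across the 12 knockout libraries, with each group's mean subtracted, Cish was set against 5 genes by exact permutation within groups (two-sided, 13824 arrangements), a comparison added after the data had been seen. For Bcl6 Pearson's r was -0.47 (exact permutation p = 0.155, adjusted p = 0.263) and Spearman's rho was -0.58 (exact permutation p = 0.0760, adjusted p = 0.131), and r was -0.35 without the 2 libraries farthest from the median of Cish. Within groups r for Bcl6 was -0.82 in Bcl6LKO, -0.64 in DKO and -0.19 in PparaKO. PparaKO is the only of these groups that keeps Bcl6 in hepatocytes. For Gadd45g r was 0.55 (exact permutation p = 0.158, adjusted p = 0.263) and rho 0.68 (exact permutation p = 0.0404, adjusted p = 0.131), with r at 0.68 without those libraries. For Cyp2c70 r was -0.57 (exact permutation p = 0.124, adjusted p = 0.263) and rho -0.59 (exact permutation p = 0.0786, adjusted p = 0.131), with r at -0.19 without them. Onecut1 gave an r of -0.10 and a rho of -0.13, and Socs2 an r of 0.01 and a rho of -0.08, with exact permutation p-values between 0.747 and 0.978. None of the 5 relations passed the threshold after adjustment. Over the 12 libraries together the direction of the first 3 was that of the WT livers, though within DKO r for Gadd45g was -0.02.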

How the data were processed

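Total liver RNA had been made into ribosome-depleted stranded libraries. Per the labels and the study's methods, the authors used STAR to align reads to mm10, HOMER to quantify exons and DESeq2 to normalize. They deposited 4 tables of 24443 genes, each with 8 libraries (2 groups of 4) and each scaled by itself. The deposited per-sample values are on a log2 scale. Which transform gave them is not given in the sources used here, and low values are drawn towards a gene's mean, which understates the fold changes of low genes. The authors' fold changes and adjusted p-values in the same tables were not used. Fasted Bcl6LKO livers (4 samples) were not analysed here.

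No pseudocount was added to the deposited values. Genes listed at 0 in all 8 libraries or with a mean below 4, and Bcl6, were left out, which left 11909 genes in the fasting table. High was compared with low with limma 3.58.1 (R 4.3.3), with feeding state as a second term, a mean-dependent prior for the spread, and Benjamini-Hochberg adjustment over all tested genes. A gene was called at an adjusted p under 0.05. The fit was tested on simulated data. The comparison between feeding states used the interaction term, and PparaKO livers were fitted in their own table with 4 groups. Named genes were Bcl6, Cish, members of the growth hormone and STAT5 list, up to 10 genes per direction with the smallest p, and up to 4 per other list. Of these the text gives those needed for each account. Other genes are said to have been singled out by their values. The split, the members and the gene lists were chosen with earlier results of these data known. Neither the pattern of Cish nor a count of list members is therefore independent evidence. Sequences and coordinates are from RefSeq (GRCm38.p6). A member of the cholesterol list is not reported here and was left out of its counts. All 6 genes sought but Socs2 had a promoter window.

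Replicate numbers were checked for pairing between feeding states. Deviations from the group means correlated at 0.135 to 0.262 for the same number and at -0.288 to 0.137 for different numbers, and each of the 4 fed and 4 fasted libraries correlated best with its own number. The pairing thus comes from the data and not from the labels, and results with the replicate number as a block are given where they change a call. Alternatives were other filters, scalings and priors, Bcl6 as a numeric term, the replicate block, no feeding state, each library left out in turn, and the same libraries in the other tables.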

Additional observations from a re-analysis of the deposited data

Results flagged for a closer look

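Egfr in fasted WT livers had 1 library far from the others. It measured 13.50 in fasted WT replicate 3 (low) and 12.66 to 12.76 in the other fasted WT libraries. Of 84 groups of 4 libraries examined this was the only such gap, and chance gives about 1 in 20.

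For 14 genes given singly in the comparison of feeding states, or called with the replicate block, the high minus low difference was called as different between fasted and fed livers, which cannot be told apart from a shift between replicate numbers. The fasted minus fed difference of high minus low was negative for Msmo1 (-2.04), Sqle (-1.81), Fdps (-1.67), Cyp7a1 (-2.52), Cyp8b1 (-1.35), Cidec (-1.37) and Cntnap1 (-1.73). It was positive for Nr0b2 (2.23), Neat1 (2.32), Lbp (1.11), Herpud1 (0.90), Adgre1 (0.76), Cd5l (0.66) and C1qa (0.59). With each library left out in turn Cntnap1 stayed called throughout (adjusted p at most 0.0318), and the other 13 lost the call without 2 to 7 of the 8 libraries.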

How the results depend on the processing

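Another filter, scaling or prior changed no count of called genes in high against low. With the replicate number as a block 1 gene was called higher and 5 lower, and 3 growth hormone and STAT5 genes were lower. The block changed no other call among the named genes. It could not be fitted with the comparison between feeding states, which replicate numbers already span. With a term for replicates 1 and 2 against 3 and 4, added after seeing the data, 3 were lower, namely Cish, Cidec and Cntnap1, while Onecut1 (adjusted p = 0.0567) and Gadd45g (adjusted p = 0.315) were not called. With Bcl6 as a numeric term 0 were higher. Without feeding state in the model 0 were higher, 0 lower and 0 of the growth hormone list lower (Cish adjusted p = 0.198). Requiring a fold over 2 as well left 0 higher. Leaving out 1 library at a time gave 0 to 1 higher, 0 to 2 lower and 0 to 2 of the growth hormone list lower. For the comparison between feeding states it gave 1 to 114 calls, and for PparaKO livers 0 to 40.

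The direction turned for 7 uncalled genes. In the fed libraries alone (Bcl6LKO table) the difference was 0.25 for Cntnap1, -0.092 for Stat5b, 0.16 for Igf1, 0.11 for Igfals and 0.40 for Egfr. In the fasted libraries alone Socs2 gave -0.52 (PparaKO table) and -0.63 (DKO table), and Socs3 0.21 and 0.26. With Bcl6 as a numeric term Socs2 gave -0.063 and Socs3 0.059 per log2 unit. Without 1 library Socs2 ran from -0.30 to 0.23 (-0.03, -0.13 and -0.30 without fed WT replicates 1, 2 and 4), Socs3 from -0.46 to 0.17, Stat5b from -0.036 to 0.055 (-0.03 and -0.036 without fasted WT replicates 2 and 4), Igf1 from -0.20 to 0.018 and Egfr from -0.15 to 0.23 (0.09, 0.04 and 0.23 without fasted WT replicates 1, 2 and 3). The cause was not tested. With 2 against 2 libraries in each feeding state small differences cannot be seen, and depth is unknown.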
